A study of Rattus norvegicus with 6 samples.

Results

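The genes described are 10 transporters that carry glucose, fructose or small monocarboxylates such as lactate across the cells of the kidney tubule. They are Slc5a1, Slc5a2, Slc5a8, Slc5a10, Slc5a12, Slc2a1, Slc2a2, Slc2a4, Slc2a5 and Slc16a1, and each was found through the RefSeq accession of its probes on a rat expression array. All 10 had at least 1 probe, out of 15284 named genes on the array, and together they had 18 of its 61657 probes. The RNA was that of the renal cortex, which holds most of the proximal tubules, and came from 6 male rats of the Crl:CD(SD) Sprague-Dawley stock, bought at 5 weeks of age and fed a basal diet. Vehicle rats received corn oil and treated rats phenolphthalein (a pH indicator and former laxative) at 1000 mg/kg/day, for 4 weeks in each of the 2 groups of 3. Each array held the Cy3-labelled RNA of 1 rat, and the study asked which transcripts differ in the renal cortex after phenolphthalein.

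Filtered glucose is taken back almost completely by the proximal tubule. On the brush border, sodium-coupled transporters of the SLC5 family pull sugar into the cell with the sodium gradient. On the opposite, basolateral membrane, GLUT2 (Slc2a2) and GLUT1 (Slc2a1) of the facilitative SLC2 (GLUT) family let glucose pass down its gradient into the blood. Lactate and related short-chain acids follow a parallel route through sodium-coupled SLC5 members and the proton-linked SLC16 family.

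All values below are log2 of the processed spot intensity relative to the 75th percentile of the same array, so 0 is that percentile and a difference of 1 is a doubling. They compare animals for 1 probe at a time, and the level of one gene is not set against that of another. The 10 proximal tubule markers examined, Lrp2, Cubn and Slc34a1 among them, were all tested, and their mean lay between 6.10 and 6.27 in vehicle and between 6.03 and 6.25 in phenolphthalein, so the labelled tissue carried the tubule's defining transcripts in both groups. On each array 64.8% to 72.1% of the probes were well above background, and 0 were saturated. All vehicle arrays were on 1 slide, while the treated ones were on 2 others, replicate 1 on its own and replicates 2 and 3 together, so slide and group cannot be told apart. The replicate names are those of the scanner files. In the series' own value table the same arrays stand under other replicate names of the same group, so only replicate identity within a group is uncertain.

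No transporter passed the test across all genes. In the fit of limma, 0 of the 10 were called higher and 0 lower (smallest adjusted p = 0.452, for Slc2a5), and among all 34417 items tested 0% were called in either direction. At an unadjusted p under 0.05, Slc2a5 and Slc2a2 had higher values with phenolphthalein and 0 of the 10 had lower values, against 3.91% of all items on the higher side and 4.96% on the lower. Groups did not overlap for the same 2 genes, both on the higher side, against 6.59% of all items higher, 9.11% lower and 15.7% in either direction. Of the 10, 7 had a higher mean in phenolphthalein, with a median log2 difference of 0.10, while the median over all items was -0.02 and 45.8% of items had a higher and 54.2% a lower mean. Of the 17 tested probes of the 10 genes, 10 had a higher and 7 a lower mean, beside 46.5% and 53.5% of all tested probes. On the higher side 4 of them reached an unadjusted p under 0.05 and the same number did not overlap, and on the lower side 0. Over all tested probes those shares were 3.91% and 6.64% on the higher side, 4.91% and 8.98% on the lower, and 8.82% and 15.6% in either direction. Without phenolphthalein replicate 1 that median was -0.02 and 4 of the 10 had a higher mean. These are RNA levels of whole cortex, in which fewer cells of a type and less RNA per cell cannot be told apart.

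**Figure D1:**
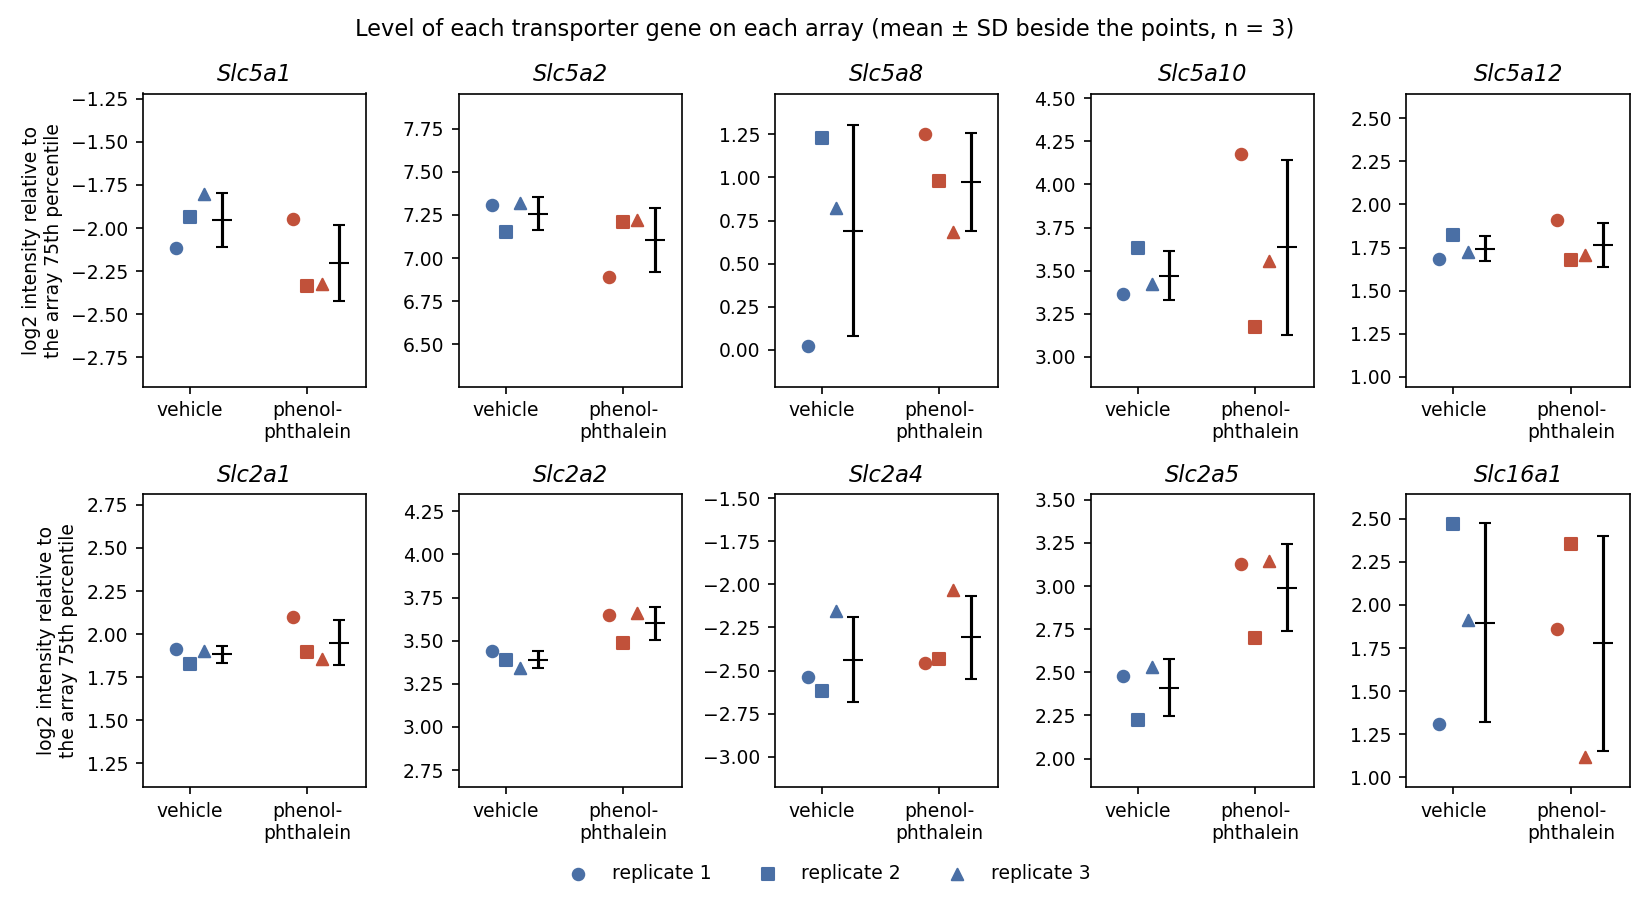
Log2 intensity relative to the array's 75th percentile (vertical axis, every panel spanning the same number of log2 units) for the probe that stands for each of the 10 genes, in vehicle (blue) and phenolphthalein (red). Points are animals, marked by replicate number, and the bar beside them is the mean ± SD (n = 3); Slc2a5 and Slc2a2 are the panels in which every phenolphthalein animal lies above every vehicle animal.

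Slc2a5, which encodes GLUT5, the facilitative transporter with a preference for fructose, had the largest difference of the 10. It stood at 2.48, 2.22 and 2.53 in vehicle replicates 1 to 3 and at 3.13, 2.70 and 3.15 in phenolphthalein replicates 1 to 3. Each treated animal was above each vehicle animal, and the gap between the groups was widest for phenolphthalein replicates 1 and 3. Group means were 2.41 ± 0.17 and 2.99 ± 0.25 (SD, n = 3 each), which differ by 0.58 in log2 (SE 0.14, limma adjusted p = 0.452), or 1.49-fold with a 95% confidence interval of 1.18 to 1.89. That interval is for this gene alone and is not widened for the number of genes tested. Its other probe gave 2.44, 2.17 and 2.50 in vehicle and 3.04, 2.65 and 3.09 in phenolphthalein. The second probe thus ordered the animals alike, with a log2 difference of 0.55 (limma adjusted p = 0.437 over all probes), and after centring on the vehicle mean the probes differed by at most 0.05 on any array. They read the same RNA and are not separate evidence. On the higher side, 2.36% of all items had a log2 difference as large as this or larger, and items lower by as much are not counted in that share. By unadjusted limma p Slc2a5 ranked 355 of 34417.

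The value for Slc2a5 lay between 0.49 and 0.73 when each array was left out in turn, lowest without vehicle replicate 2. Markers of macrophages and other leukocytes had lower means with phenolphthalein. Of 8 such markers, 8 had lower values, beside 54.2% of all items. At an unadjusted p under 0.05 in limma 7 of them were lower, beside 4.96% of all items. No item tested, these markers included, had an adjusted p under 0.05. Their mean lay between 1.18 and 1.42 in vehicle and between 0.71 and 0.89 in phenolphthalein, and all 8 were above background on at least 1 array. The part of that list in the values of Slc2a5 and Slc2a2 was not tested. The markers of the S3 segment, the straight end of the proximal tubule, had means of 4.75 to 5.02 in vehicle and 4.61 to 5.40 in phenolphthalein. Phenolphthalein replicates 1 and 3, close to each other in Slc2a5, had the highest and the lowest S3 mean of the 6 arrays, and the part of S3 content in the Slc2a5 values was not tested.

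Slc5a10 encodes SGLT5, a sodium-coupled carrier of mannose and fructose that is largely restricted to the kidney. It stood at 3.36, 3.63 and 3.42 in vehicle and at 4.18, 3.18 and 3.55 in phenolphthalein. The treated group held both the highest and the lowest of the 6 values, and the groups overlapped. The log2 difference was 0.16 (SE 0.235, limma adjusted p = 0.86), with a 95% confidence interval from a fold of 0.762 to 1.65. Phenolphthalein replicate 1, the array alone on its slide, exceeded the mean of the other treated animals by 0.815, and without it the difference was -0.11. The same array had the highest S3 marker mean, 5.40. It had the highest value of the S3 markers Slc7a13, Slc22a7, Slc3a1 and Acy3, but the lowest of Napsa, and Cyp7b1 lay in between. The part of those markers in the Slc5a10 value was not tested.

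Slc2a2 encodes GLUT2, the basolateral exit for glucose and fructose in the early proximal tubule. Its brightest probe stood at 3.44, 3.39 and 3.34 in vehicle and at 3.65, 3.49 and 3.66 in phenolphthalein. The groups did not overlap, though the lowest treated animal, replicate 2, was only slightly above the highest vehicle animal. Group means were 3.39 ± 0.05 and 3.60 ± 0.10 (SD, n = 3 each), which differ by 0.21 in log2 (SE 0.07, limma adjusted p = 0.497) or 1.16-fold, with a 95% confidence interval of 1.04 to 1.29 for this gene alone. The second probe of the gene differed by 0.25 without overlap, and the dimmest of its probes by 0.17 with overlap (limma adjusted p = 0.525 and 0.8 over all probes). The unadjusted p of 0.016 was 0.0582 without vehicle replicate 3 and 0.0519 without phenolphthalein replicate 3.

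Liver cells also make GLUT2, and liver transcripts varied from array to array. Over the 12 liver markers, all of them tested, the mean lay between -1.48 and -0.22 in vehicle and between -1.13 and 0.55 in phenolphthalein. With phenolphthalein 10 of the 12 had higher and 2 lower values, beside 45.8% and 54.2% of all items. At an unadjusted p under 0.05 in limma there were 0. In vehicle replicates 1 to 3 the liver marker means were -0.22, -0.99 and -1.48, the same order as their Slc2a2 values. In phenolphthalein replicates 1 to 3 they were -1.13, 0.55 and -0.90, and replicate 2, with the highest liver mean, had the lowest Slc2a2 of the treated animals. The part of liver RNA in the Slc2a2 values was not tested. Without phenolphthalein replicate 2, the log2 difference of Slc2a2 was 0.27.

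The promoters of these 2 fructose and glucose carriers are shown because they are the members whose groups did not overlap. The sequences are those of RefSeq on the GRCr8 assembly, run 5′ to 3′ on the gene's strand and end at the base before the annotated start; 9 of the 10 genes had an entry. Slc2a5 lies on the plus strand at chr5:165865929-165866178 and Slc2a2 on the plus strand at chr2:113540120-113540369.
Slc2a5: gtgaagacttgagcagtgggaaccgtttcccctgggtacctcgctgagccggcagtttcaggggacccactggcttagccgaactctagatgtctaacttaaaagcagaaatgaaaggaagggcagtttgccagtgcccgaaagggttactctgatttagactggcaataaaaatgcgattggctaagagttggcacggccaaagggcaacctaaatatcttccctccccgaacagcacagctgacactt
Slc2a2: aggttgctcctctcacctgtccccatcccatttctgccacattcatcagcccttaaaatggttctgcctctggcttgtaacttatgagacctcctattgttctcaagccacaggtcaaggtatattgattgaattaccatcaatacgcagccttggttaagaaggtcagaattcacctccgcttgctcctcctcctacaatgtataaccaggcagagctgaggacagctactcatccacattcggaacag
Of 3 motifs searched in the 250 bases before each start, neither sequence holds any, so no letter is in capitals. They were the HNF1 half-site GTTAAT on both strands, the E-box CACGTG, which reads the same on both strands, and TATAAA on the gene's strand. Among all 33469 promoters of that length, 6.45% hold the half-site, 5.59% the E-box and 8.06% TATAAA. HNF1 is a transcription factor of the proximal tubule, and the E-box is the core of the element bound by glucose-responsive factors. Only the E-box occurred among the 9 promoters, once in Slc5a1 and once in Slc16a1. The windows with 10 bases on either side, E-box in capitals, lie at chr14:81843269-81843294 on the minus strand for Slc5a1 and at chr2:194812434-194812459 on the plus strand for Slc16a1, where the box starts 200 and 216 bases upstream.
Slc5a1: ttttctgcttCACGTGggactccgtg
Slc16a1: agcgcctagtCACGTGgcgggaaggg
A match of letters is a description of the sequence and no binding site was measured.

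Slc5a2 encodes SGLT2, the high-capacity glucose cotransporter of the early proximal tubule and the target of the gliflozin drugs. It stood at 7.31, 7.15 and 7.32 in vehicle and at 6.89, 7.21 and 7.22 in phenolphthalein. Phenolphthalein replicate 1 was the lowest of the 6, while the other treated animals lay among the vehicle values. Between the means the log2 difference was -0.15 (SE 0.10, limma adjusted p = 0.689), and the 95% confidence interval ran from a fold of 0.767 to 1.06. The other probes gave -0.19 and -0.22, and phenolphthalein replicate 1 was the lowest array on them too. Without that array the difference was -0.04, so most of it rests on 1 animal.

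Slc5a1 encodes SGLT1, the low-capacity, high-affinity cotransporter that recovers what SGLT2 leaves behind further along the tubule. It stood at -2.12, -1.94 and -1.80 in vehicle and at -1.95, -2.34 and -2.32 in phenolphthalein. Phenolphthalein replicates 2 and 3 were below every vehicle animal and replicate 1 was among them, so the groups overlapped. The log2 difference was -0.25 (SE 0.14, limma adjusted p = 0.654), with a 95% confidence interval from a fold of 0.665 to 1.06, and the second probe gave -0.16. Without phenolphthalein replicate 1 it was -0.38, with an unadjusted p of 0.0222 (limma, adjusted p = 0.558; 0.558 to 0.895 over the arrays left out in turn). Phenolphthalein replicate 1 thus lay on opposite sides for the 2 glucose cotransporters: below the other treated animals by 0.32 for Slc5a2 and above them by 0.38 for Slc5a1. That array was alone on its slide and had the highest S3 marker mean (5.40), though not the highest value of every S3 marker. The part of slide or S3 content in the Slc5a2 and Slc5a1 values was not tested.

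**Figure D2:**
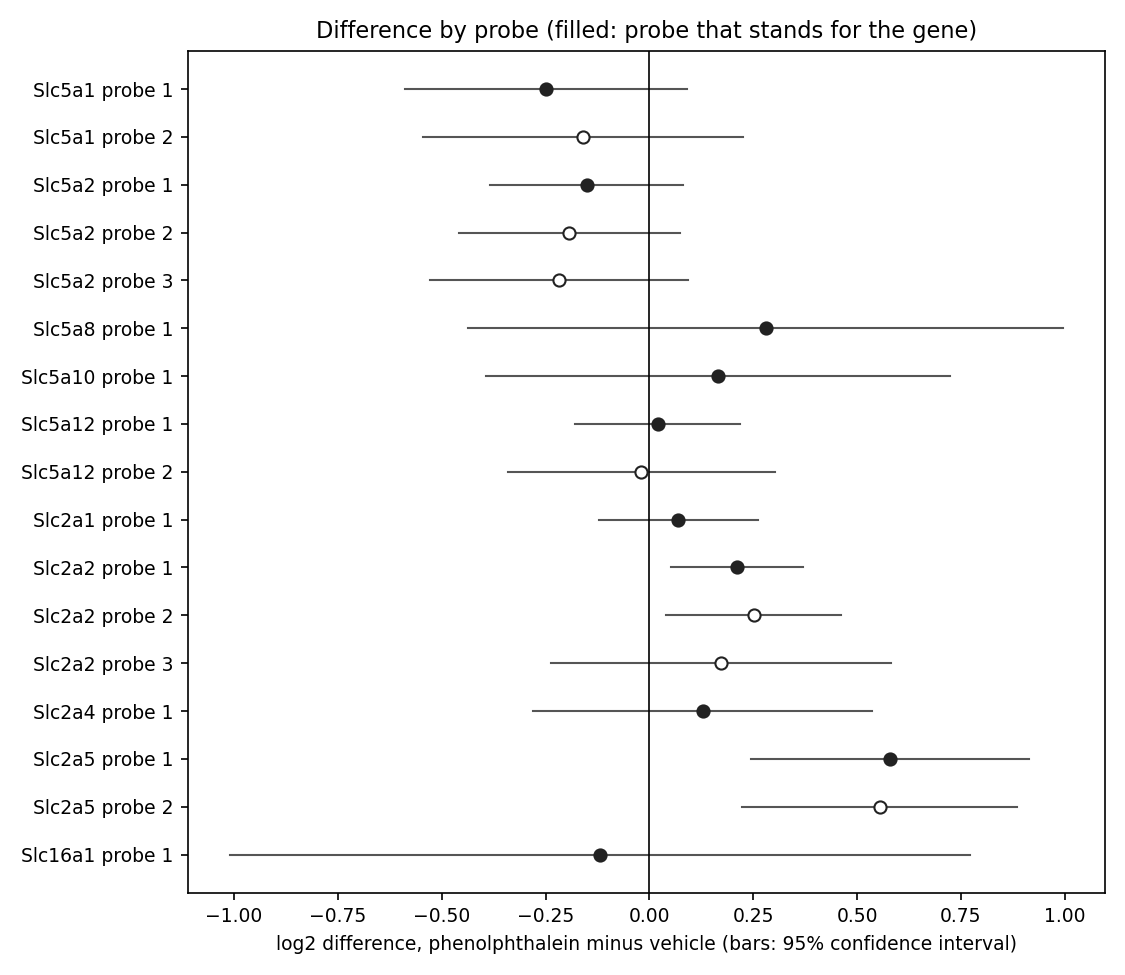
Log2 difference, phenolphthalein minus vehicle (horizontal axis), for each of the 17 tested probes of the 10 genes, with limma's 95% confidence interval as a bar. Filled points are the probe that stands for the gene and open points its other probes, numbered from the brightest; the interval leaves 0 out for both Slc2a5 probes and for the first and second of Slc2a2.

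Slc2a1 encodes GLUT1, the widely expressed glucose carrier of the basolateral membrane in later segments. It stood at 1.92, 1.83 and 1.90 in vehicle and at 2.10, 1.90 and 1.86 in phenolphthalein. Apart from phenolphthalein replicate 1 the treated animals lay within the vehicle values. Group means differed by 0.07 in log2 (SE 0.08, limma adjusted p = 0.826), and its 95% confidence interval of 0.919 to 1.20 in fold was among the narrower ones of the 10. Red cells and endothelium also carry GLUT1. The marker means of erythroid cells were 2.35 to 2.68 in vehicle and 2.33 to 2.65 in phenolphthalein. Those of endothelium were 1.00 to 1.12 and 1.04 to 1.09. The part of these cells in the Slc2a1 values was not tested.

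Slc2a4 encodes GLUT4, the insulin-responsive carrier of muscle and fat, a minor transcript in kidney. Its brighter probe stood at -2.54, -2.62 and -2.16 in vehicle and at -2.46, -2.44 and -2.03 in phenolphthalein, with overlap. Group means differed by 0.13 in log2 (SE 0.17, limma adjusted p = 0.851). Its other probe was not tested. It cleared background on 0 of 3 vehicle arrays and on 1 of 3 phenolphthalein arrays, at means of -6.86 and -5.94, and is the single one of the 18 probes left out by the filter on dim spots. Mean levels of muscle markers lay between -2.41 and -2.03 in vehicle and between -2.14 and -1.85 in phenolphthalein, with Myh2 not above background on any array. For adipocyte markers they lay between -2.45 and -2.05 and between -2.53 and -2.25, with Lep not above background on any array. The muscle marker Cnn1 stood at -7.38 and -7.01 in vehicle replicates 1 and 2, below the lowest signal above background there (-6.4 and -5.54). Its difference of 0.87 is part of the muscle mean, in which 5 of 7 tested markers were higher and 2 lower. The adipocyte marker Retn stood at -6.559 and -6.475 in phenolphthalein replicates 1 and 3, below the lowest signal above background there (-6.11 and -6.31). Its difference of -0.55 is part of the adipocyte mean, in which 2 of 5 tested markers were higher and 3 lower. The part of muscle and fat in the Slc2a4 values was not tested.

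Lactate and short-chain acid carriers had SDs between animals above the size of the group difference in both groups, as Slc2a4 also did. In Slc5a10, Slc2a1 and Slc5a2 only the phenolphthalein SD (0.51, 0.13 and 0.19) was above it. Of the lactate and short-chain acid carriers, Slc16a1 in both groups and Slc5a8 in vehicle had wide SDs. Those of Slc5a12 were 0.07 in vehicle and 0.13 in phenolphthalein, beside medians of 0.12 and 0.15 over all items. Slc16a1 encodes MCT1, the proton-linked lactate and pyruvate carrier. It stood at 1.31, 2.47 and 1.91 in vehicle and at 1.86, 2.35 and 1.12 in phenolphthalein. Each group spanned over a doubling and the ranges overlapped almost fully. The SDs of 0.58 in vehicle and 0.62 in phenolphthalein were at or above those of 94.8% and 94.5% of all items. The log2 difference of -0.12 (SE 0.38, limma adjusted p = 0.942) left a 95% confidence interval from a fold of 0.496 to 1.71, so wide that differences of either sign are inside it. Its direction turned when vehicle replicate 2 (0.17) or phenolphthalein replicate 3 (0.21) was left out.

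Slc5a8 encodes SMCT1, the high-affinity sodium-coupled carrier of lactate and short-chain fatty acids on the brush border. It stood at 0.02, 1.23 and 0.82 in vehicle and at 1.25, 0.98 and 0.68 in phenolphthalein. Vehicle replicate 1 was far below the other 5 arrays, which lay between 0.68 and 1.25. The vehicle SD of 0.61 was at or above that of 95.3% of items. The log2 difference was 0.28 (SE 0.30, limma adjusted p = 0.812), with a 95% confidence interval from a fold of 0.739 to 1.99, and it was -0.05 without vehicle replicate 1. That animal was also the lower extreme of the vehicle group for Slc16a1. Both genes had a single probe, so no second probe bears on these spreads.

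Slc5a12 encodes SMCT2, the low-affinity partner of SMCT1. Its brighter probe stood at 1.69, 1.82 and 1.73 in vehicle and at 1.91, 1.68 and 1.71 in phenolphthalein. Phenolphthalein replicate 1 was the highest of the 6 and the groups overlapped. The log2 difference was 0.02 (SE 0.08, limma adjusted p = 0.959) with a 95% confidence interval from a fold of 0.884 to 1.16, and the second probe gave -0.02, which made Slc5a12 the only one of the 5 genes with over 1 tested probe whose probes differed in sign.

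**Figure D3:**
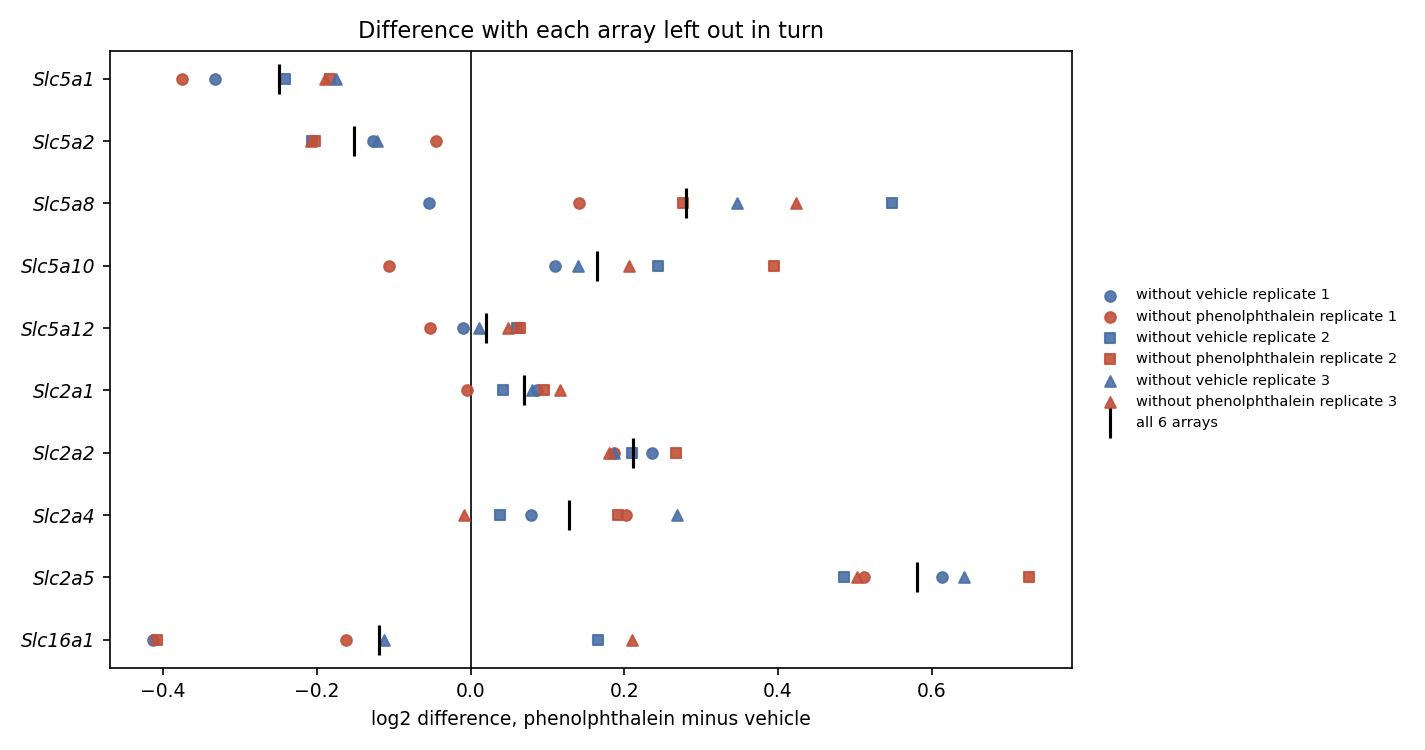
Log2 difference, phenolphthalein minus vehicle (horizontal axis), for each of the 10 genes with all 6 arrays (black bar) and with each array left out (blue without a vehicle array, red without a phenolphthalein array, symbol by replicate number). Slc2a5 (0.49 to 0.73) and Slc2a2 (0.18 to 0.27) stay on the higher side and Slc5a1 (-0.38 to -0.18) and Slc5a2 (-0.21 to -0.04) on the lower side, while the other 6 genes cross 0.

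The arrays differed in how they held these genes. Phenolphthalein replicate 1 had the highest value of Slc5a8, Slc5a10, Slc5a12 and Slc2a1 and the lowest of Slc5a2. Phenolphthalein replicate 3 had the highest value of Slc2a2, Slc2a4 and Slc2a5 and the lowest of Slc16a1. Phenolphthalein replicate 2 had the lowest value of Slc5a1, Slc5a10 and Slc5a12. Vehicle replicate 2 was lowest for Slc2a1, Slc2a4 and Slc2a5 and highest for Slc16a1. Vehicle replicate 3 was highest for Slc5a1 and Slc5a2 and lowest for Slc2a2, and vehicle replicate 1 was lowest for Slc5a8.

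The other genes of the pathway were read from lists of relatives, partners and enzymes. Of 66 listed genes, 53 were tested, and limma called 0 in either direction (smallest adjusted p = 0.434). At an unadjusted p under 0.05, 4 had higher and 4 lower values, against 8.87% of all items in both directions. The median over the 53 was -0.04, with 22 higher and 31 lower.

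Among 5 tested SLC5 relatives, 1 had a higher and 4 a lower mean. Slc5a4, an SGLT relative, stood at -3.53, -3.40 and -3.49 in vehicle and at -3.92, -3.75 and -4.04 in phenolphthalein, without overlap, a log2 difference of -0.43 (SE 0.13, limma adjusted p = 0.497). With another background correction (normexp) it was -0.20. The iodide carrier Slc5a5 (-0.30) and the vitamin carrier Slc5a6 (-0.12) overlapped between groups. Slc5a5 was dim, and its -5.13 in vehicle replicate 2 was near the lowest signal above background on that array (-5.54). With 1 array left out Slc5a5 lay between -0.20 (without vehicle replicate 3) and -0.47 (without vehicle replicate 2), and Slc5a6 between -0.04 (without phenolphthalein replicate 2) and -0.24 (without phenolphthalein replicate 1).

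Of 6 tested SLC2 relatives, 3 had a higher and 3 a lower mean. Slc2a12, which encodes the glucose carrier GLUT12, stood at 0.87, 0.85 and 0.11 in vehicle and at 1.20, 0.98 and 1.27 in phenolphthalein. The groups did not overlap, vehicle replicate 3 lay far below the rest, and the log2 difference of 0.54 (SE 0.21, limma adjusted p = 0.544) was 0.29 without it; both probes were higher. Slc2a8 (0.15) did not overlap either, and the urate carrier Slc2a9 (-0.10, and -0.05 on its other probe) did. With 1 array left out Slc2a8 lay between 0.11 and 0.20, and Slc2a9 between -0.05 (without phenolphthalein replicate 3) and -0.16 (without phenolphthalein replicate 2).

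In the SLC16 family, 3 of 11 tested relatives had a higher mean and 8 a lower one. Slc16a6, a carrier of ketone bodies, stood at 3.48, 3.55 and 3.60 in vehicle and at 3.25, 3.33 and 3.42 in phenolphthalein, without overlap and with all 3 probes lower (log2 difference -0.21, SE 0.06, limma adjusted p = 0.497). Slc16a14 was at 0.33, and between 0.18 (without phenolphthalein replicate 3) and 0.44 (without phenolphthalein replicate 1) with 1 array left out. Its other probe gave 0.12.

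Partners and regulators counted 8 higher and 6 lower means among 14 tested. Tbc1d1, a Rab GTPase-activating protein in GLUT4 traffic, stood at 3.94, 3.77 and 3.84 in vehicle and at 4.11, 4.13 and 4.15 in phenolphthalein. The treated animals lay close together above all vehicle animals, a log2 difference of 0.28 (SE 0.06, limma adjusted p = 0.434). Embigin (Emb) and basigin (Bsg), the chaperones that bring MCT carriers to the membrane, were at 0.24 and -0.09, the first without and the second with overlap; with normexp Emb was at 0.14. Bsg lay between -0.06 (without vehicle replicate 1) and -0.14 (without vehicle replicate 2) with 1 array left out, and its other probe gave -0.05. The widest of the 53 differences was that of Sgk1, an aldosterone-responsive kinase named after its values were seen, at -0.61 (SE 0.49), with overlap. Leaving out 1 array moved it from -0.25 (without vehicle replicate 3) to -1.13 (without phenolphthalein replicate 2), and it was -0.31 without phenolphthalein replicate 1 and -0.41 without phenolphthalein replicate 3.

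Enzymes of sugar and lactate metabolism had 7 higher and 10 lower means among 17 tested. Sord, which makes fructose from sorbitol, stood at 4.26, 4.34 and 4.29 in vehicle and at 4.12, 4.17 and 4.10 in phenolphthalein. All treated animals were below all vehicle animals, a log2 difference of -0.17 (SE 0.05, limma adjusted p = 0.486). Khk, which makes fructose 1-phosphate, overlapped between the groups at 0.09 (named, like Pdk4, after its values were seen). Its value ran from -0.0016 (without phenolphthalein replicate 1) to 0.15 (without phenolphthalein replicate 3) with 1 array left out, and its other probe gave 0.02. The pyruvate kinase Pklr was at 0.47 without overlap on its brighter probe and at 0.23 on its other probe. Without phenolphthalein replicate 1 the brighter probe was at 0.29. Pdk4, a kinase that shuts pyruvate dehydrogenase, was also at 0.47, with overlap, and ran from 0.29 (without vehicle replicate 1) to 0.77 (without vehicle replicate 2).

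**Figure D4:**
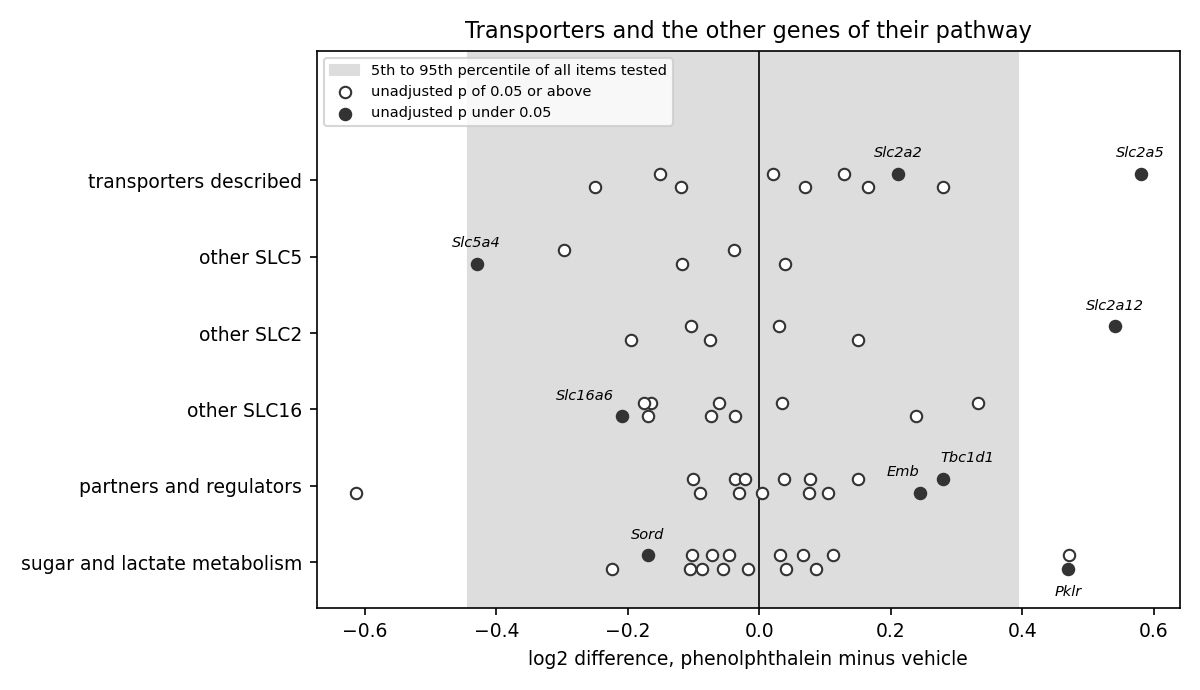
Log2 difference, phenolphthalein minus vehicle (horizontal axis), for the 10 transporters and 51 of the 53 tested genes of the 5 other lists (rows, points offset vertically for sight only), filled where the unadjusted p is under 0.05. The grey band holds the 5th to the 95th percentile of all items, -0.44 to 0.39; Slc2a5, Slc2a12, Pklr and Pdk4 lie above it and Sgk1 below.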

How the data were processed

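Total RNA from the renal cortex of 3 vehicle and 3 phenolphthalein rats was hybridised to 1-colour Agilent arrays. Per the file headers, the deposited spot intensity had been background-subtracted and detrended within each array by Agilent Feature Extraction 10.7.1.1 (10.7 per the submitters' processing notes), with no scaling between arrays; the design is annotated on rn4. The deposited value table holds a ratio, the same intensity divided by the array's 75th percentile as checked against the scanner files, and served as an alternative; 0 of its columns were left out.

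Here log2 intensity minus the log2 of the array's 75th percentile over non-control probes was analysed. Of 61657 probes, 27460 matched 1 symbol through RefSeq accessions (gene table of GRCr8), 0 several and 34197 none. Outlier spots (2 to 14 per array, none on a probe of the 10 genes) were set to missing, and probes well above background on at least 3 arrays were kept. The brightest probe stood for a gene, which gave 12269 genes and 22148 unnamed probes; other probes come from a fit over all 43473 tested probes. The fit used limma 3.58.1 (R 4.3.3; lmFit, eBayes with intensity trend, two-sided, Benjamini-Hochberg over all items, threshold 0.05), tested on simulated data. Pathway genes named are the 3 with the smallest p of each list, except that 2 of them are not reported here, and others are said to be named after their values. The members and lists were chosen with earlier results of these data known. The number of arrays, 3 per group, limits precision.

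Alternatives were normexp (offset 50, on the median signal because no mean signal column was used here), quantile and median scaling, no filter or a filter on all 6 arrays, no intensity trend, outliers kept, the value table, the median probe, slide as a random block, the replicate number as a block, and leaving out each array.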

Additional observations from a re-analysis of the deposited data

How the results depend on the processing

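Under every alternative that kept all 6 arrays, 0 genes, 0 of the 10 transporters and 0 pathway genes were called in limma, the replicate block (0) among them. No transporter changed sign (110 values), but many of these values could not. No filter, the filter on all 6 arrays, no intensity trend, outliers kept, the value table and the replicate block read the same probe intensities. Each returned the main difference up to rounding (0.58 for Slc2a5), so only the other alternatives could move a sign. Deviations from the group means of animals with the same replicate number had correlations of -0.00606, -0.015 and 0.025, so no pairing was visible; with the block the unadjusted p of Slc2a5 was 0.000353 and its adjusted p 0.40. Over all alternatives that kept the 6 arrays, the limma adjusted p of Slc2a5 was 0.40 to 0.69. Leaving out 1 array gave 0 to 1 genes called higher and 0 to 1 lower over all genes, none a transporter, and a median log2 difference of the transporters of -0.0245 to 0.149. Of 60 such values of single transporters, 8 changed sign. Slc5a8 ran from -0.0547 (without vehicle replicate 1) to 0.549, Slc5a10 from -0.107 (without phenolphthalein replicate 1) to 0.395, Slc5a12 from -0.0532 (without phenolphthalein replicate 1; -0.00988 without vehicle replicate 1) to 0.0645, Slc2a1 from -0.00464 (without phenolphthalein replicate 1) to 0.117, Slc2a4 from -0.00848 (without phenolphthalein replicate 3) to 0.269 and Slc16a1 from -0.413 to 0.21 (without phenolphthalein replicate 3; 0.166 without vehicle replicate 2). Slc5a1, Slc5a2, Slc2a2 and Slc2a5 did not. The cause was not tested. The normexp alternative and the counts at an unadjusted p were chosen after seeing the data.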
